A study of Mus musculus with 16 samples.

Results

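The collagen genes were followed as a family in 16 transplanted mouse mammary tumours. The members were all rows of the deposited expression table whose symbol is Col, a type number, the letter a and a chain number, which gave 44 genes of 55146. Col4a3bp, a gene of lipid transfer whose symbol begins in the same way, falls outside this pattern. All 16 tumours were PyMT tumours. They were taken from MMTV-PyMT transgenic mice aged 12 weeks, in which the promoter of the mouse mammary tumour virus drives polyoma middle T antigen in mammary epithelium, and regrown in FVB mice after reimplantation in mammary fat pad 4. The hosts received vehicle, anti-PD-L1 (5 mg/kg, 2 times a week), sonidegib (20 mg/kg each day) or the combination of both drugs at these doses, over 28 days, with 4 tumours per group. Anti-PD-L1 is an antibody against an immune checkpoint ligand, and sonidegib blocks Smoothened, a membrane protein through which Hedgehog signals pass. The labels give neither the age of the hosts nor whether tumours of a group came from separate donors, so each p-value reflects the spread among the tumours sequenced, which may be in part technical.

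Collagens are proteins of the extracellular matrix built as trimers of chains, and each chain has its own gene. Fibrillar collagens form the banded fibrils of connective tissue, fibril-associated collagens decorate these fibrils, collagen IV forms the sheet network of basement membranes, and collagen VI forms beaded microfilaments. In the mammary gland, epithelium rests on a basement membrane rich in collagen IV, and fibroblasts of the stroma are the main source of collagens I and III.

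RNA levels are given as FPKM, in which fragments are divided by transcript length and by mapped fragments, a scale on which genes can be compared per length. Sequencing depth was roughly estimated from low values at 34.7 to 56.9 M (mega) fragments. By this estimate 1 fragment on a transcript of 2 kb would be worth 0.00977 to 0.0160 FPKM. Vehicle replicate 3 stood apart. Its genes deviated from their medians by -0.764 on the log2 scale (median), while the remaining 15 libraries lay between -0.129 and 0.149. Luminal epithelial markers (Epcam, Krt8, Krt18, Krt19, Cdh1 and Elf5) summed to 494 to 2071 FPKM per library, so RNA of the labelled tissue was present in each. No library correlated with any other above a Pearson r of 0.974 over genes.

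Chains known from cartilage and chains of stromal fibrils were both among the most abundant collagen RNAs. Col11a1 had the highest mean over the 16 libraries (81.9 FPKM), followed by Col9a1 (59.9), Col1a2 (57.0), Col3a1 (51.4) and Col9a2 (47.0). The order differed by group. Col11a1 led with vehicle (127 FPKM, raised by replicate 2 at 228) and with anti-PD-L1 (80.4), but with sonidegib Col9a1 was higher (74.3 against 69.6), and with the combination Col3a1 (65.3) and Col1a2 (59.3) were higher than Col11a1 (50.9). Col16a1 (37.3), Col1a1 (36.1), Col4a1 (28.0), Col9a3 (27.4) and Col12a1 (23.4) completed the 10 members with a mean of at least 20 FPKM. Of the 44 members, 42 were above 0 in all 16 libraries, and Col4a3 and Col22a1 were listed at 0 in 1 library each. A filter of at least 1 FPKM in at least 4 libraries left 29 members for the test across all genes and 15 below it. Of the 29, 12 varied by 5 times or more between their lowest and highest library, Col2a1 from 1.63 to 83.8 FPKM.

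**Figure D1:**
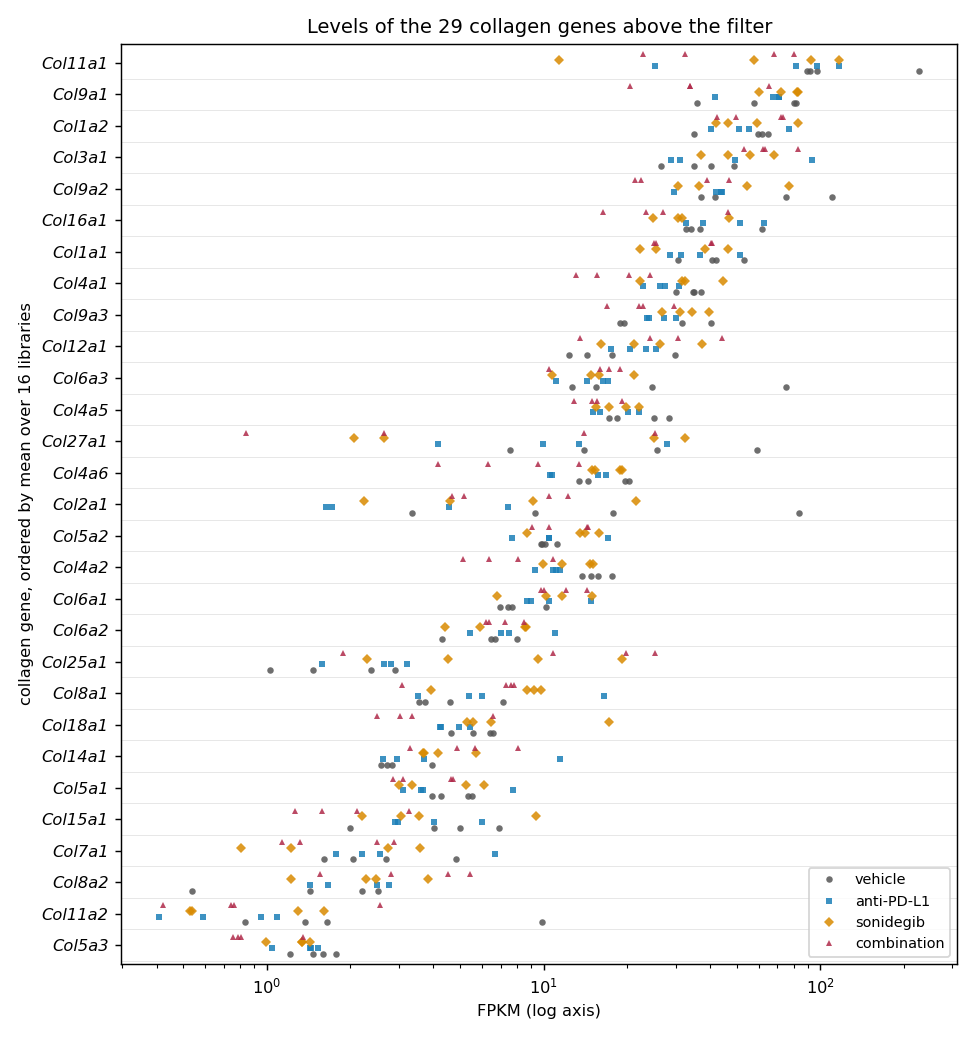
FPKM (log axis) of the 29 collagen genes above the filter, 1 row per gene ordered by its mean over 16 libraries, 1 point per tumour with colour and shape for the group. Col11a1, Col9a1 and Col1a2 lie at the top, and Col2a1 spans 1.63 to 83.8 FPKM.

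By structural class, fibrillar collagens made up 30.4% to 52.8% of the summed collagen FPKM of a library (median 44.0%) and fibril-associated collagens 25.3% to 38.9% (median 34.7%). Collagen IV made up 7.71% to 18.8% (median 11.5%) and collagen VI 4.40% to 8.40% (median 5.78%). The transmembrane collagens held 0.270% to 0.555% in the vehicle tumours, 0.503% to 1.13% with anti-PD-L1, 0.503% to 3.74% with sonidegib and 0.568% to 5.00% in the combination tumours. The high transmembrane shares came mostly from Col25a1, at 25.3 of 26.8 FPKM in combination replicate 2 and 19.3 of 20.05 FPKM in sonidegib replicate 1. These shares are descriptions, with no test.

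**Figure D2:**
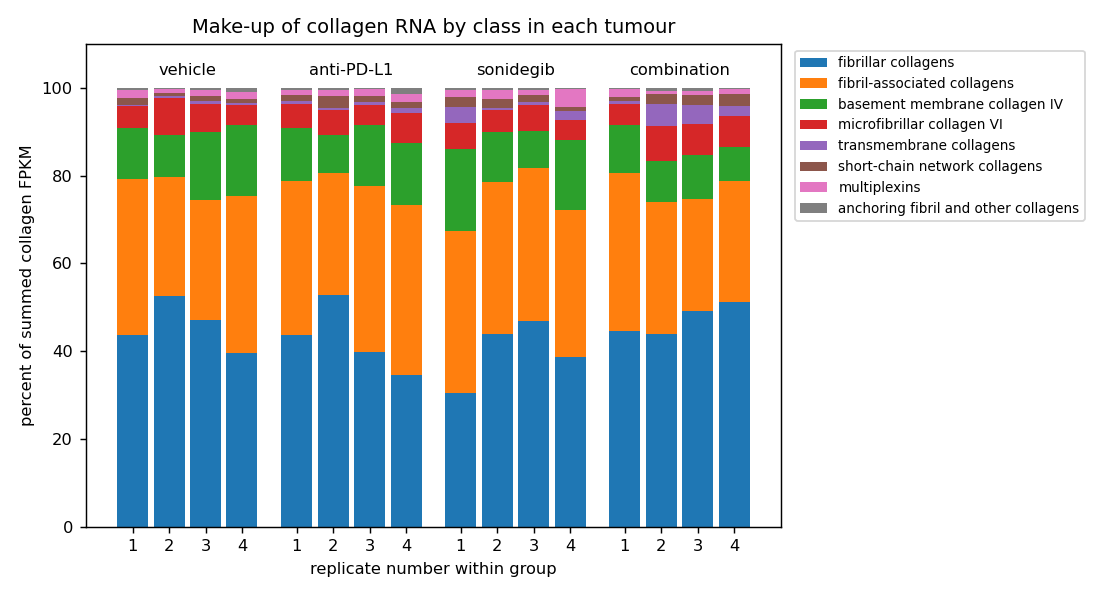
Percent of summed collagen FPKM by structural class, 1 stacked bar per tumour, ordered by group and replicate number. Fibrillar and fibril-associated collagens fill most of every bar, and the transmembrane share lies between 0.270% and 0.555% in the 4 vehicle tumours, reaches 3.74% with sonidegib and reaches 5.00% in the combination group. In the highest tumour of these last groups, that share is mostly Col25a1.

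With the combination of sonidegib and anti-PD-L1, RNA of 3 collagen IV chains was lower than with vehicle, and RNA of the transmembrane collagen Col25a1 was higher. Col4a1 and Col4a2, the chains found in nearly all basement membranes, and Col4a6, a chain of a subset of them, fell. The main fibrillar genes Col1a1 and Col1a2 did not pass the test. The study's design text sets this drug pair against each drug alone and vehicle to follow tumour growth and immune infiltration. Limma with Benjamini-Hochberg adjustment over 15105 genes called 4 of the 29 tested members, 3 lower and 1 higher. Over all tested genes 11.3% were called, 0.953% lower and 10.3% higher. Of the members, 10 of 29 had an unadjusted p under 0.05, as did 33.6% of all tested genes, 10 had a positive log2 difference and 19 a negative one. Their median log2 difference was -0.39, against 0.26 for all tested genes. Without vehicle replicate 3 the median of all tested genes was 0.07, and that of the members was not computed. With the GC trend of each library removed, the medians were -0.16 for the members and -0.002 for all tested genes. They were -0.67 and -0.03 with quantile normalization, and -0.69 and 0.01 with median-of-ratios scaling.

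**Figure D3:**
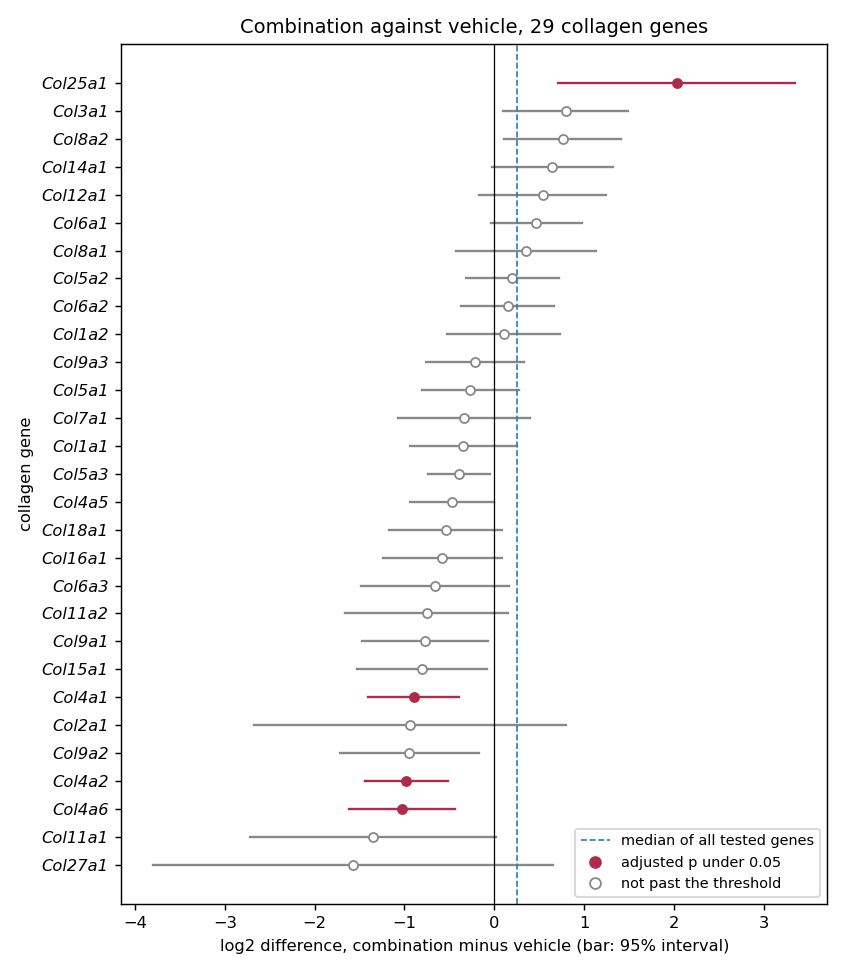
Difference between combination and vehicle on the log2(FPKM + 1) scale for 29 collagen genes, with 95% intervals from limma (4 tumours per group), filled points for adjusted p under 0.05 and a dashed line at the median of all tested genes. Col25a1 lies at 2.03, and Col4a1, Col4a2 and Col4a6 lie between -1.03 and -0.90.

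These calls depended on single tumours, and so did the calls over all tested genes. The count of members was 0 without vehicle replicate 1, 2 or 3 and without combination replicate 2 or 4, 1 (Col4a2) without combination replicate 3, and 9 without combination replicate 1. Over all tested genes the share called was 0.0199% to 0.0665% without vehicle replicate 1, 2 or 3, 0.0534% and 0.02% without combination replicate 2 and 4, 3.45% without combination replicate 3 and 28.2% without combination replicate 1. The members' count was 0 with no filter on low values and 2 (Col4a2 and Col4a6) with the GC trend of each library removed, where 0.021% and 3.82% of all tested genes were called. Without vehicle replicate 3, the log2 differences were -0.86 for Col4a1, -0.97 for Col4a2, -1.10 for Col4a6 and 2.12 for Col25a1, with adjusted p of 0.114 or 0.115 by limma. Over all alternatives the adjusted p by limma ranged from 0.00234 to 0.145 for Col4a2, from 0.00750 to 0.146 for Col4a1 and from 0.00347 to 0.146 for Col4a6, and their differences kept their sign. With quantile normalization 0 members were higher and 6 lower, and median-of-ratios scaling gave the same counts, against 1 higher and 3 lower without scaling. In both cases Col5a3, Col9a1 and Col9a2 joined the lower calls and Col25a1 left the higher ones. Over all tested genes the share of lower calls was 0.953% without scaling, 8.66% with quantile normalization and 8.16% with median-of-ratios scaling, with 8.78% and 10.2% higher. The median log2 difference of all genes was -0.03 and 0.01 under these scalings.

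All 4 tested genes of collagen IV had a negative difference between combination and vehicle, 3 of them past the threshold. Col4a1 (ENSMUSG00000031502.11) was at 30.0, 34.7, 37.0 and 35.0 FPKM in vehicle replicates 1 to 4 and at 24.2, 15.7, 20.3 and 13.1 FPKM in combination replicates 1 to 4. The highest combination tumour lay below the lowest vehicle tumour. With anti-PD-L1 Col4a1 was at 23.0, 27.5, 30.9 and 26.4 FPKM, and with sonidegib at 44.4, 32.5, 22.4 and 31.6 FPKM. Both single-drug groups overlapped vehicle. The mean was 34.2 ± 2.96 FPKM with vehicle and 18.3 ± 4.91 with the combination (SD, n = 4 each), a log2 difference of -0.90 (SE 0.24, 95% interval -1.40 to -0.39, adjusted p = 0.0362 by limma).

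Col4a2 (ENSMUSG00000031503.13), the partner chain of Col4a1 in the same trimer, was at 14.9, 17.6, 15.8 and 13.8 FPKM with vehicle and 10.9, 6.34, 8.09 and 5.12 FPKM with the combination. Again the 2 groups were fully separate. Its levels were 9.32, 11.5, 11.1 and 10.8 FPKM with anti-PD-L1, all below the lowest vehicle tumour, and 14.7, 15.2, 9.94 and 11.7 FPKM with sonidegib, which overlapped vehicle. The log2 difference between combination and vehicle was -0.98 (SE 0.22, 95% interval -1.44 to -0.52, adjusted p = 0.0342 by limma). The ratio of Col4a1 to Col4a2 FPKM was 2.22 ± 0.27 with vehicle and 2.44 ± 0.15 with the combination (SD, n = 4), a log2 difference in ratio of 0.08 (exact permutation p = 0.343).

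Col4a6 (ENSMUSG00000031273.16), whose chain joins that of Col4a5 in basement membranes such as those of skin and smooth muscle, was at 13.4, 20.3, 14.5 and 19.8 FPKM with vehicle and 13.4, 9.52, 6.30 and 4.14 FPKM with the combination. The highest combination value, replicate 1 at 13.40 FPKM, lay just below the lowest vehicle value of 13.42. With sonidegib it was at 19.2, 14.95, 15.3 and 19.0 FPKM, in each tumour above all 4 combination tumours, and with anti-PD-L1 at 16.8, 10.7, 15.8 and 10.6 FPKM. The log2 difference between combination and vehicle was -1.03 (SE 0.28, 95% interval -1.62 to -0.44, adjusted p = 0.0369 by limma). Col4a5 was at 18.5, 28.5, 24.99 and 17.3 FPKM with vehicle and 12.8, 19.2, 15.6 and 15.02 FPKM with the combination. Its groups overlapped, and its log2 difference of -0.47 (95% interval -0.94 to 0.00, adjusted p = 0.151 by limma) did not pass. Col4a3 and Col4a4, the chains known from the kidney filter, reached at most 0.463 FPKM and were below the filter.

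**Figure D4:**
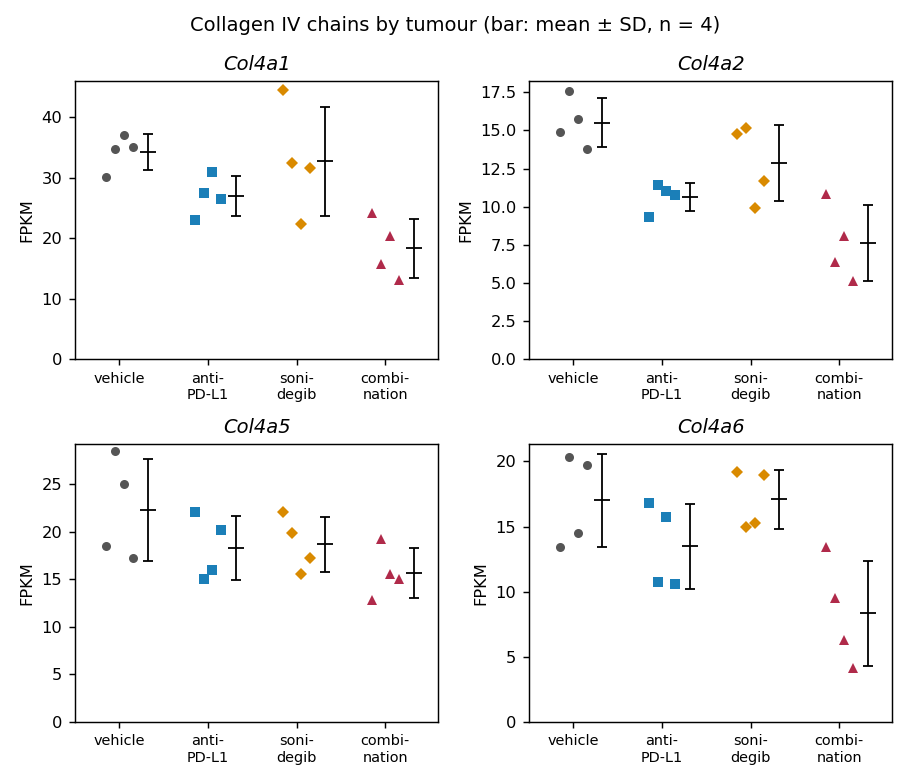
FPKM of Col4a1, Col4a2, Col4a5 and Col4a6 in each of the 16 tumours by group, 1 point per tumour, with mean ± SD (n = 4) beside the points. The combination tumours lie below all vehicle tumours for Col4a1 (13.1 to 24.2 FPKM), Col4a2 (5.12 to 10.9) and Col4a6 (4.14 to 13.4), while for Col4a5 these 2 groups overlap.

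Summed over its 6 genes, collagen IV was at 77.2 to 102 FPKM in the vehicle tumours, 65.2 to 73.8 with anti-PD-L1, 63.4 to 100.5 with sonidegib and 37.8 to 61.5 with the combination. In GENCODE release M21 (GRCm38), Col4a1 lies on the minus strand at chr8:11198423-11312826 and Col4a2 on the plus strand at chr8:11312805-11449287. The annotated genes start head to head and share 22 bases. Whether fragments were counted by strand is not given in the sources used here, so fragments of this overlap cannot be assigned to 1 gene. In all 13 members share exon bases with another annotated gene, among them Col3a1 with Gm47302 on the same strand and Col9a3 with Tcfl5 on the opposite strand. Col4a6 (minus strand, chrX:141165403-141474076) and Col4a5 (plus strand, chrX:141475385-141689234) also start head to head, 1308 bases apart. The 250 bases before the start of Col4a6 are shown because they open this interval between a gene that fell and a neighbour that did not pass the test. They are printed 5′ to 3′ on the strand of the gene, from RefSeq (GRCm38.p6), at chrX:141474077-141474326, and no annotated exon lies in them.

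Col4a6: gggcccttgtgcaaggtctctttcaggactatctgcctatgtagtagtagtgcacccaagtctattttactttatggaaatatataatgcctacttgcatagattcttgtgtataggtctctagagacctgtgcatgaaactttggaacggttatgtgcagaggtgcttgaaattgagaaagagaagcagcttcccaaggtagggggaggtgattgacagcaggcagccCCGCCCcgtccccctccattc

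Capitals mark matches to GGGCGG, the core of the GC box, on either strand, to CCAAT and to TATAAA, and no marked motifs overlap. This window holds 1 GGGCGG match (on the opposite strand), and no match to the other motifs. GGGCGG occurs in 32.7% of 32851 promoter windows of the same length, CCAAT in 33.9% and TATAAA in 12.4%. A match is a string of letters and was not tested as a site. Of the 44 members, 35 had a RefSeq promoter, of which 21 held GGGCGG, 13 CCAAT and 5 TATAAA in these 250 bases.

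Markers of cells that lay down basement membranes went in both directions between combination and vehicle. Of 5 tested endothelial markers (Pecam1, Cdh5, Kdr, Tek, Tie1 and Emcn were listed) 0 were called between combination and vehicle, and the summed list was at 6.97 to 12.8 FPKM with vehicle and 11.2 to 15.1 with the combination. Of 5 tested pericyte and smooth muscle markers, Notch3 was lower (log2 difference -1.11). In all, 3 of the 5 had a positive difference and 2 a negative one. The summed list was at 22.9 to 36.5 FPKM with vehicle and 30.9 to 47.5 with the combination, with medians of 33.1 and 33.5. Acta2 alone reached 29.1 FPKM in combination replicate 3. Mean Rgs5 was 3.00 FPKM with vehicle and 8.07 with the combination, and mean Cspg4, below the filter, was 0.676 and 0.318. Among 5 basal and 6 luminal epithelial markers 0 were called. The basal list summed to 14.8 to 38.3 FPKM with vehicle (median 17.9) and 12.7 to 38.6 with the combination (median 26.5). The luminal list summed to 494 to 2071 FPKM with vehicle (median 1384) and 853 to 1710 with the combination (median 927). Of the luminal markers 4 had a negative log2 difference and 2 a positive one. The Schwann cell list had 1 tested gene, the neural crest factor Sox10, which fell (-1.09, from 38.8 to 71.7 FPKM with vehicle to 16.5 to 41.2 with the combination). The part of these markers in the collagen IV differences was not tested, and in bulk tumours fewer cells of a type and less RNA per cell cannot be told apart.

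The fibrillar collagens of the stroma showed no call in the combination group. Col1a1, which encodes the main chain of collagen I, was at 40.5, 53.2, 42.1 and 30.6 FPKM with vehicle and 25.1, 40.5, 40.2 and 25.6 FPKM with the combination. The groups overlapped, and the log2 difference was -0.34 (95% interval -0.94 to 0.26, adjusted p = 0.415 by limma). With anti-PD-L1 Col1a1 was at 31.4, 51.4, 28.6 and 36.9 FPKM and with sonidegib at 25.4, 38.3, 46.4 and 22.4 FPKM, again overlapping vehicle.

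Col1a2, the partner chain of Col1a1, was at 64.6, 59.4, 61.4 and 34.9 FPKM with vehicle, with replicate 4 lowest, and 42.3, 73.2, 72.0 and 49.7 FPKM with the combination. Its log2 difference was 0.10 (95% interval -0.52 to 0.73), which turned to -0.20 with quantile normalization and to -0.25 with median-of-ratios scaling. The single-drug values were 50.7, 77.1, 40.3 and 55.1 FPKM with anti-PD-L1 and 46.5, 58.9, 82.9 and 42.1 FPKM with sonidegib. All 4 groups overlapped in Col1a2.

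Col3a1, the collagen III gene of reticular fibrils, was at 34.9, 48.8, 40.3 and 26.5 FPKM with vehicle and 62.3, 63.1, 82.9 and 53.1 FPKM with the combination. Each combination tumour exceeded all 4 vehicle tumours, as did 3.12% of all tested genes. The log2 difference of 0.79 (SE 0.33, 95% interval 0.10 to 1.49, adjusted p = 0.104 by limma) did not pass. Col3a1 was at 49.4, 93.5, 28.8 and 31.0 FPKM with anti-PD-L1 and 55.7, 37.1, 67.9 and 46.5 FPKM with sonidegib, both overlapping vehicle.

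The ratio of collagen III to collagen I RNA separated the combination tumours from the vehicle tumours, without passing the adjustment over the ratios tested. The ratio of Col3a1 to Col1a1 FPKM was 0.863 to 0.958 in the vehicle tumours and 1.559 to 2.48 in the combination tumours, so the groups were separate. It was 0.841 to 1.82 with anti-PD-L1 and 0.969 to 2.20 with sonidegib. The mean log2 ratio, each value plus 1 FPKM, differed by 1.14 between combination and vehicle (exact two-sided permutation p = 0.0286, the smallest that 4 against 4 allows, and 0.08 after Benjamini-Hochberg adjustment over 7 pairs of chains). With the GC trend of each library removed, an alternative chosen after the data were seen, the difference was 0.88. The transcripts of Col3a1 have 52.5% GC and those of Col1a1 58.9%. The slope of expression on GC was 2.76 ± 2.24 log2 units per unit of GC fraction with vehicle and -1.95 ± 2.75 with the combination (SD, n = 4). The ratio of Col1a1 to Col1a2 was 0.627 to 0.894 with vehicle and 0.514 to 0.593 with the combination (log2 difference -0.45, exact permutation p = 0.0286, adjusted 0.08). None of the 7 ratios passed the adjustment, which cannot be passed unless most of the 7 reach the smallest p.

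**Figure D5:**
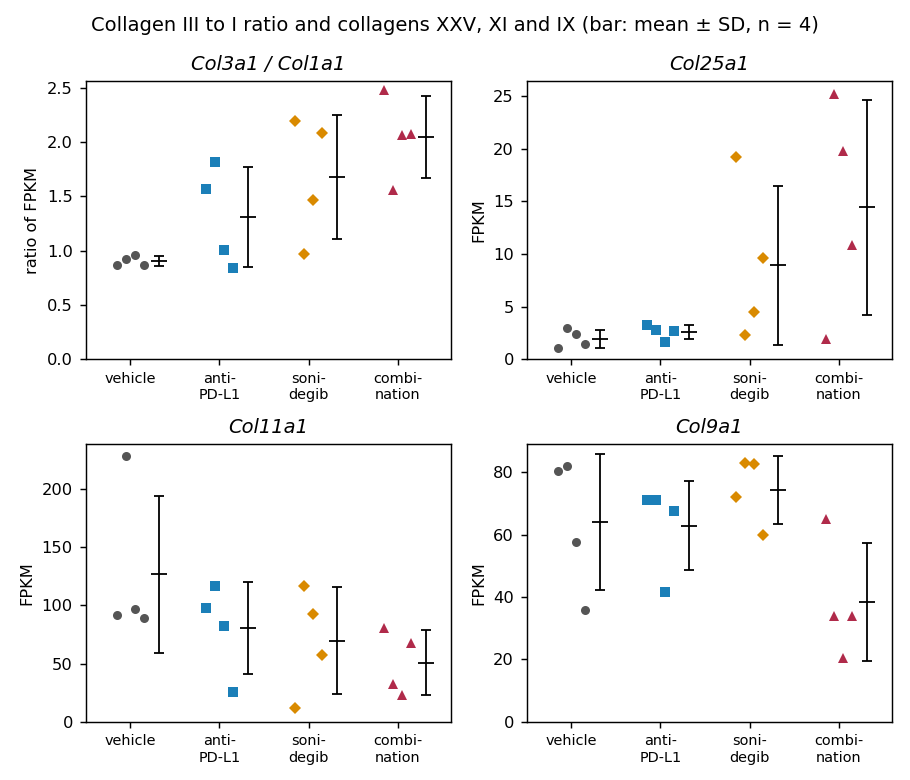
Ratio of Col3a1 to Col1a1 FPKM, and FPKM of Col25a1, Col11a1 and Col9a1, in each of the 16 tumours by group, with mean ± SD (n = 4). The ratio lies between 1.559 and 2.48 in the combination tumours, above all vehicle tumours, and combination replicate 1 is low in Col25a1 (1.88 FPKM).

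Collagen V, which copolymerizes with collagen I and limits fibril width, held Col5a1 at 4.76 ± 0.778 FPKM with vehicle and 3.83 ± 0.980 with the combination (SD, n = 4). Col5a2 was at 10.2 ± 0.641 and 12.1 ± 2.73 FPKM, and its log2 difference of 0.20 turned to -0.10 with quantile normalization, to -0.13 with median-of-ratios scaling and to -0.06 with the GC trend removed. Col5a3 was at 1.52 ± 0.242 and 0.925 ± 0.285 FPKM (log2 difference -0.39, adjusted p = 0.102 by limma). In Col5a3 combination replicate 1 (1.35 FPKM) stood above the other 3 combination tumours (0.754 to 0.809), which lay below all vehicle tumours (1.21 to 1.78). The ratio of Col5a1 to Col5a2 was 0.468 ± 0.094 with vehicle and 0.315 ± 0.030 with the combination (exact permutation p = 0.0571, adjusted 0.08), a log2 difference of -0.47 that was -0.06 with the GC trend removed.

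The collagens known from cartilage (collagen II, IX and XI) made up 18.7% to 52.1% of collagen FPKM per library, with a median of 36.5%. None of their genes passed the test between combination and vehicle. Col11a1, a chain of the thin fibrils of cartilage that is also found in tumour stroma, was at 91.7, 228, 97.1 and 89.6 FPKM with vehicle and 80.4, 32.4, 23.0 and 67.8 FPKM with the combination. All combination tumours lay below all vehicle tumours, as in 4 of the 29 members and 1.27% of all tested genes (the others were Col4a1, Col4a2 and Col4a6). The log2 difference was -1.35 (SE 0.65, 95% interval -2.72 to 0.02, adjusted p = 0.153 by limma). With anti-PD-L1 Col11a1 was at 97.4, 117, 81.9 and 25.3 FPKM and with sonidegib at 11.4, 117, 92.6 and 57.8 FPKM. In these 2 groups 1 tumour each lay far below the rest.

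Col9a1, a chain of the fibril-associated collagen IX, was at 80.4, 81.9, 57.7 and 35.9 FPKM with vehicle and 65.1, 33.9, 20.5 and 33.9 FPKM with the combination. The groups overlapped through combination replicate 1, which exceeded vehicle replicates 3 and 4. The log2 difference was -0.77 (SE 0.33, adjusted p = 0.116 by limma). In the interaction of the 2 drugs Col9a1 differed by -1.05 (SE 0.47, adjusted p = 0.485 by limma). With anti-PD-L1 it was at 71.1, 71.0, 41.6 and 67.5 FPKM and with sonidegib at 71.9, 82.9, 82.5 and 59.9 FPKM. Without vehicle replicate 4 the difference between combination and vehicle was -1.02, and without combination replicate 1 it was -1.06, and Col9a1 was called in both cases, in which 33% and 28.2% of all tested genes were called.

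Col9a2 was at 75.1, 110.4, 37.2 and 41.5 FPKM with vehicle and 46.8, 22.5, 21.3 and 39.1 FPKM with the combination, with vehicle replicates 1 and 2 far above the other 2. Its log2 difference was -0.94 (SE 0.37, 95% interval -1.71 to -0.17, adjusted p = 0.0847 by limma). It was at 41.9, 43.7, 44.2 and 29.7 FPKM with anti-PD-L1 and 30.5, 77.1, 54.2 and 36.4 FPKM with sonidegib. Col9a3, the remaining chain of collagen IX, was at 31.7, 40.4, 19.5 and 18.9 FPKM with vehicle and 22.2, 29.6, 23.0 and 16.9 FPKM with the combination, and overlapped (log2 difference -0.21, adjusted p = 0.588 by limma). Its single-drug values were 23.7, 27.1, 24.1 and 30.1 FPKM with anti-PD-L1 and 39.5, 31.1, 34.3 and 26.7 FPKM with sonidegib. All 4 groups overlapped in Col9a3.

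Col2a1, the main fibril chain of cartilage, was at 17.8, 83.8, 9.33 and 3.34 FPKM with vehicle and 10.5, 4.67, 5.15 and 12.3 FPKM with the combination. Vehicle replicate 2 was the highest library of all in Col2a1, Col11a1 (228 FPKM), Col9a2 (110.4 FPKM), Col11a2 (9.86 FPKM), Col27a1 (59.2 FPKM) and Col6a3 (75.2 FPKM). The same tumour was also highest in Col1a1 (53.2 FPKM), Col9a3 (40.4), Col4a5 (28.5), and the called genes Col4a6 (20.3) and Col4a2 (17.6). Col27a1, a fibrillar chain of cartilage, ranged from 0.840 to 59.2 FPKM over the 16 libraries, and its log2 difference between combination and vehicle was -1.57 (SE 1.03, adjusted p = 0.3001 by limma). Aggrecan (Acan) and matrilin 3 (Matn3), which define cartilage, stayed at or below 0.224 and 0.0949 FPKM, and the bone gene Ibsp at or below 0.0341 FPKM. Other genes of the list were expressed. The cartilage matrix gene Comp ranged from 0.163 to 8.40 FPKM and Chad, which encodes chondroadherin, from 0.225 to 10.9 FPKM, both highest in vehicle replicate 2, and the osteocalcin gene Bglap ranged from 0 to 10.96 FPKM, highest in sonidegib replicate 1. The list of 6 cartilage and bone markers summed to 0.414 to 19.9 FPKM with vehicle, 1.475 to 5.36 with anti-PD-L1, 3.15 to 21.8 with sonidegib and 3.13 to 11.8 with the combination, and 0 of its 3 tested genes were called. The source of the cartilage-type chains in these tumours was not tested.

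The other fibril-associated collagens had no call. Col16a1, found beside fibrils and microfibrils, was at 32.8, 36.8, 34.0 and 61.6 FPKM with vehicle and 46.3, 27.0, 23.5 and 16.4 FPKM with the combination (log2 difference -0.58, 95% interval -1.24 to 0.09, adjusted p = 0.209 by limma). Its groups overlapped, with vehicle replicate 4 and combination replicate 1 highest. With anti-PD-L1 Col16a1 was at 51.4, 32.8, 62.7 and 37.6 FPKM and with sonidegib at 30.7, 31.5, 46.8 and 24.8 FPKM. Col12a1, a large chain on collagen I fibrils, was at 14.4, 17.7, 12.3 and 29.9 FPKM with vehicle and 13.6, 44.3, 30.5 and 24.3 FPKM with the combination (log2 difference 0.54, 95% interval -0.17 to 1.25, adjusted p = 0.271 by limma). Here vehicle replicate 4 and combination replicate 1 made the groups overlap. Col12a1 was at 17.6, 23.5, 25.4 and 20.5 FPKM with anti-PD-L1 and 21.2, 26.3, 37.5 and 16.1 FPKM with sonidegib. Col14a1 was at 3.03 ± 0.629 FPKM with vehicle and 5.48 ± 1.99 with the combination (SD, n = 4; log2 difference 0.65, adjusted p = 0.164 by limma).

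Col25a1, a transmembrane collagen known from neurons, whose shed part occurs in amyloid plaques, was the member that was higher in the combination group. Col25a1 (ENSMUSG00000058897.18) lies on the plus strand at chr3:130131501-130599877. Its promoter is shown because it belongs to the called gene with the largest difference. The 250 bases before the RefSeq start (GRCm38.p6, chr3:130180595-130180844, plus strand) lie inside the GENCODE gene, whose earliest start is at 130131501, and hold no annotated exon.

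Col25a1: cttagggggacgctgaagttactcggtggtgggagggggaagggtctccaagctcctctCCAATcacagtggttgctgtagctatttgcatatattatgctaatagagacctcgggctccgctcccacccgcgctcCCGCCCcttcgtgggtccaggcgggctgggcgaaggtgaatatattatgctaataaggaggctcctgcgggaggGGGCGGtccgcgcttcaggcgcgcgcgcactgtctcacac

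Capitals mark 1 CCAAT match and 2 GGGCGG matches, 1 on each strand, and TATAAA does not occur in this window. Col25a1 was at 1.02, 2.92, 2.38 and 1.47 FPKM with vehicle and 1.88, 25.3, 19.8 and 10.8 FPKM with the combination. Combination replicates 2, 3 and 4 exceeded every vehicle tumour, and replicate 1 lay within the vehicle range. With sonidegib Col25a1 was at 19.3, 2.30, 4.52 and 9.58 FPKM, where replicates 1, 3 and 4 exceeded every vehicle tumour, and with anti-PD-L1 at 3.21, 2.80, 1.58 and 2.65 FPKM, overlapping vehicle.

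The log2 difference of Col25a1 was 2.03 between combination and vehicle (SE 0.62, 95% interval 0.71 to 3.35, adjusted p = 0.0481 by limma). It was 1.47 between sonidegib and vehicle (SE 0.62, adjusted p = 0.157 by limma). The call was lost in 13 of 16 leave-outs of 1 library, with differences of 1.64 to 2.71, and in 6 of 7 other settings, with differences of 1.55 to 2.42. Over all these alternatives the adjusted p by limma ranged from 0.00150 without combination replicate 1 to 0.161 without combination replicate 2. Adipocyte markers (5 genes) summed to 0.622 to 3.93 FPKM with vehicle and 6.002 to 45.7 with the combination, with combination replicate 1 highest. The sums were 2.07 to 12.4 FPKM with anti-PD-L1 and 2.29 to 7.65 with sonidegib. All combination sums exceeded all vehicle sums. This also held for Fabp4 alone (0.547 to 2.27 FPKM with vehicle, 5.74 to 26.2 with the combination), which made up most of the combination sums. Adipoq, Plin1, Cidec and Lep overlapped between these groups, with combination replicate 1 highest in each. Plin1 was at 0.0259 to 0.445 FPKM with vehicle and 0.0109 to 4.22 with the combination. The 1 tested gene of the list, the fatty acid carrier gene Fabp4, rose between combination and vehicle (log2 difference 2.15, SE 0.45, adjusted p = 0.0342 by limma). Combination replicate 1 also had a GC slope of 2.13 against values down to -3.87 in its group. The part of these values in the collagen differences was not tested. The other transmembrane members Col13a1, Col17a1 and Col23a1 were below the filter.

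Collagen VI, the microfilament collagen of most connective tissues, had no call. Col6a1 was at 8.08 ± 1.45 FPKM with vehicle and 11.6 ± 2.11 with the combination (SD, n = 4; log2 difference 0.47, 95% interval -0.04 to 0.97, adjusted p = 0.183 by limma). Col6a2 was at 6.36 ± 1.53 and 7.08 ± 1.06 FPKM, and its log2 difference of 0.15 turned to -0.17 with quantile normalization and with median-of-ratios scaling. Col6a3 was at 15.5, 75.2, 24.6 and 12.7 FPKM with vehicle, with replicate 2 far above the rest, and 10.5 to 18.8 FPKM in the combination tumours. Col6a4, Col6a5 and Col6a6, alternative chains, were below the filter.

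The remaining tested members did not pass the test. The basement membrane zone collagens Col15a1 and Col18a1, the latter the source of endostatin, were at 4.49 ± 2.05 and 5.79 ± 0.902 FPKM with vehicle and at 2.06 ± 0.875 and 3.86 ± 1.83 with the combination. Their log2 differences were -0.80 for Col15a1 (adjusted p = 0.114 by limma) and -0.54 for Col18a1 (adjusted p = 0.212). Col8a1 and Col8a2, short-chain collagens of vessel walls, were at 4.75 ± 1.64 and 1.67 ± 0.884 FPKM with vehicle and at 6.47 ± 2.27 and 3.58 ± 1.73 with the combination. Col8a2 differed by 0.76 (95% interval 0.11 to 1.41, adjusted p = 0.0982 by limma), and Col8a1 by 0.35, which turned to -0.07 with the GC trend removed. Col7a1, the anchoring fibril collagen below squamous epithelium, was at 2.80 ± 1.42 and 1.96 ± 0.865 FPKM, and Col11a2, a further chain of collagen XI, at 3.43 ± 4.30 and 1.12 ± 0.971 FPKM.

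The 15 members under the filter reached at most 2.38 FPKM, in Col17a1, the hemidesmosome collagen of basal epithelium. Their mean FPKM in the combination and vehicle groups was compared with a two-sided exact permutation test. Col6a5 was at 0.0550, 0.0560, 0.0544 and 0.0170 FPKM with vehicle and 0.208, 0.256, 0.378 and 0.274 FPKM with the combination, which corresponds to an estimated 6.86 to 20.2 and 92.0 to 162 fragments per library. The groups did not overlap. Col26a1 was higher in every combination tumour (0.474 to 0.697 FPKM) than in every vehicle tumour (0.280 to 0.410 FPKM), and Col20a1 was lower (0.0729 to 0.0833 against 0.0865 to 0.1797 FPKM). Each of these 3 genes reached the smallest exact permutation p that 4 against 4 allows, 0.0286, and 0 of 15 passed the adjustment over them (lowest adjusted p = 0.143). The adjustment cannot be passed unless most of the 15 reach this smallest p, so it does not tell whether these 3 genes differ. The share of such separate genes among all genes below the filter was not computed. Col10a1, Col13a1, Col4a3, Col4a4, Col23a1, Col24a1, Col28a1, Col6a4, Col6a6, Col22a1 and Col19a1 had means of 0.0217 to 0.541 FPKM over the 16 libraries.

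No collagen gene passed the test in the other 6 comparisons. Between anti-PD-L1 and vehicle limma called 0 of 29 members and 0% of all tested genes. Here 3 members had an unadjusted p under 0.05, as did 24.6% of all tested genes: Col2a1 (log2 difference -1.93, SE 0.81), Col4a2 (-0.50, SE 0.22) and Col11a2 (-0.95, SE 0.43), and the lowest adjusted p was 0.174. Col4a2 was the member with all 4 anti-PD-L1 tumours below all vehicle tumours, as were 0.477% of tested genes, and 0 members had all 4 above (3.39% of tested genes). Without vehicle replicate 4, 1 member was called, Col2a1 (-2.57), and 26.2% of all tested genes were called.

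Between sonidegib and vehicle limma called 0 of 29 members and 0% of all tested genes, with 1 member (Col25a1) at an unadjusted p under 0.05, against 27.3% of all tested genes. Of the members 0 were separate between these groups, while 0.265% of tested genes had all 4 sonidegib tumours below and 6% above. With sonidegib the mean levels of collagen IV chains were 32.7 ± 9.03 FPKM for Col4a1, 12.9 ± 2.496 for Col4a2 and 17.1 ± 2.28 for Col4a6 (SD, n = 4). Their log2 differences from vehicle, with 95% intervals, were -0.10 (-0.60 to 0.41) for Col4a1, -0.26 (-0.73 to 0.20) for Col4a2 and 0.02 (-0.57 to 0.61) for Col4a6. The largest negative difference was that of Col11a1 (log2 difference -1.14, SE 0.65, adjusted p = 0.248 by limma).

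Between combination and sonidegib limma called 0 of 29 members and 0% of all tested genes, and 6 members had an unadjusted p under 0.05, all lower with the combination, as did 4.28% of all tested genes in either direction. They were Col4a6 (-1.05), Col9a1 (-1.04), Col18a1 (-0.90), Col4a1 (-0.80), Col15a1 (-0.75) and Col4a2 (-0.72), and their adjusted p was 0.959 by limma. Col4a6 was lower in all 4 combination tumours than in all 4 sonidegib tumours, as were 2.44% of tested genes, and 0 members were higher in all 4 (0.483% of tested genes). Without combination replicate 1 it was called (-1.29), as were 0.777% of all tested genes. This comparison and that with vehicle share the combination libraries.

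Between combination and anti-PD-L1 limma called 0 of 29 members and 0.00662% of all tested genes. Here 6 members, and 5.78% of all tested genes, had an unadjusted p under 0.05: Col25a1 was higher (1.74) and Col4a6 (-0.71), Col9a1 (-0.78), Col4a1 (-0.56), Col16a1 (-0.74) and Col4a2 (-0.48) were lower, and the lowest adjusted p was 0.812. Of the members 0 were separate between these groups, while 2.48% of tested genes had all 4 combination tumours below and 1.36% above. Without combination replicate 1, Col25a1 was called (2.41), as were 1.43% of all tested genes.

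The comparison across the 4 groups, which the series names as its primary one, called 0 of 29 members and 0.0199% of all tested genes by limma. At an unadjusted p under 0.05 were 23.7% of all tested genes and 6 members (Col4a2, Col4a6, Col4a1, Col25a1, Col9a1 and Col18a1), and the lowest adjusted p was 0.163. Without combination replicate 1 it called 5 members (Col4a1, Col4a2, Col4a6, Col25a1 and Col9a1), and without vehicle replicate 4 it called 3 (Col4a1, Col4a2 and Col4a6), with 12.2% and 22.2% of all tested genes called. The interaction of the 2 drugs called 0 of 29 members and 0.00662% of all tested genes by limma, with Col9a1 and 9.88% of all tested genes at an unadjusted p under 0.05.

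For several chain pairs the levels were correlated over the 16 libraries. For Col4a1 and Col4a2, Pearson's r of log2(FPKM + 1) was 0.940 and Spearman's rho 0.906 (permutation p = 1e-05 for each, the smallest that 100000 permutations can give, and 0.0001 adjusted over 10 pairs). Without the 2 libraries farthest from the median r was 0.854, and after removal of group means it was 0.853. Col1a1 and Col1a2 had r = 0.807 and rho = 0.835 (permutation p = 0.00025 and 0.00012, adjusted 0.00054 and 0.0006), with r = 0.767 without the 2 farthest libraries. Col6a1 and Col6a2 had r = 0.835 and rho = 0.806 (permutation p = 8e-05 and 0.00036, adjusted 0.0004 and 0.0012), with r = 0.793 without the 2 farthest. Col9a2 and Col11a1, which share no trimer, had r = 0.796 and rho = 0.782 (permutation p = 0.00027 and 0.00058, adjusted 0.00054 and 0.00145), with r = 0.684 without the 2 farthest. After removal of group means r was 0.927, 0.891 and 0.786 for these last 3 pairs. Col4a1 and Col4a6 had r = 0.807, and 0.493 after this removal. These values were 0.640 and 0.791 for Col5a1 and Col5a2, 0.6615 and 0.626 for Col9a1 and Col9a2, and 0.595 and 0.432 for Col9a1 and Col9a3. The permutations moved libraries between groups, so the p-values also reflect differences between groups.

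Col4a5 and Col4a6, which start head to head, had r = 0.439 and rho = 0.471 (permutation p = 0.0892 and 0.0690, adjusted 0.0991 and 0.0767) and r = 0.0816 after removal of group means. Col6a3 and Col6a1 had r = -0.0490 and rho = 0.303 (permutation p = 0.860 and 0.255, adjusted 0.860 and 0.255), and r = 0.778 without the 2 farthest libraries, so this value rests on these libraries. The difference between any 2 of these correlations was not tested. All points share the library and its depth.

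Between combination and vehicle limma called 4 of 37 tested genes that make, process, bind or degrade collagen (10.8%), beside 11.3% of all tested genes. Of 17 tested genes of collagen folding and modification (such as the hydroxylases P4ha1 and Plod1 and the chaperone Serpinh1) limma called 0, with a median log2 difference of -0.12. Of 8 tested genes of procollagen cleavage and crosslinking (such as Bmp1 and Lox) limma called 0, with a median of 0.25. Of 7 tested collagen receptors, Lair1, an inhibitory receptor of leukocytes, rose (1.07, SE 0.33, adjusted p = 0.0448 by limma) and the integrin gene Itga2 fell (-0.98, SE 0.31, adjusted p = 0.0480). Of 5 tested genes of collagen degradation, 2 rose: Ctsk, the collagen-cleaving cathepsin K (1.51, SE 0.30, adjusted p = 0.0342 by limma), and Mmp2, a gelatinase (1.05, SE 0.25, adjusted p = 0.0342).

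Ctsk was at 2.17 ± 0.54 FPKM with vehicle and 8.49 ± 3.38 with the combination, and Mmp2 at 5.61 ± 1.20 and 12.9 ± 4.25 FPKM (SD, n = 4). All combination tumours exceeded all vehicle tumours in both genes. Itga2 was at 1.49 to 6.62 FPKM with vehicle and 0.377 to 1.68 with the combination, and Lair1 at 1.92 to 4.23 and 2.495 to 11.8 FPKM, so both overlapped. In the other comparisons above, limma called 0 genes of these 4 lists.

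Several fibroblast markers rose with the combination while Col1a1 and Col1a2 did not pass the test. Of 9 tested markers 5 were called higher (Dcn, Lum, Dpt, Pdgfra and Thy1), beside 10.3% of all tested genes. The median log2 difference of the list was 1.03, with 8 positive and 1 negative. Fap, Fbln1, Pi16 and Pdgfrb were not called, and Pdgfrb had a mean of 2.47 FPKM with vehicle and 2.29 with the combination. The summed list was at 10.2 to 21.2 FPKM with vehicle, 17.6 to 72.8 with anti-PD-L1, 19.9 to 49.9 with sonidegib and 52.4 to 120 with the combination. Dcn, the proteoglycan decorin that binds collagen fibrils, was at 4.38 ± 2.59 FPKM with vehicle and 45.5 ± 19.5 with the combination (SD, n = 4). Lum, lumican, another proteoglycan of fibrils, was at 1.65 ± 1.28 and 17.5 ± 9.69 FPKM. The summed macrophage list was at 89.8 to 124 FPKM with vehicle and 133 to 189 with the combination. Its highest gene, C1qa, was at 59.9 to 82.8 FPKM with vehicle and 88.2 to 145 with the combination. Adgre1, Cd68 and Csf1r overlapped between these groups, and Csf1r had a lower mean with the combination (17.8 against 22.1 FPKM). Of the 5 macrophage genes 1, Mrc1, was called. These calls depended on single tumours as those of the collagens did. Of 13 genes of the non-collagen lists called between combination and vehicle (Ctsk, Mmp2, Lair1, Itga2, Dcn, Lum, Dpt, Pdgfra, Thy1, Mrc1, Notch3, Sox10 and Fabp4), 0 were called without vehicle replicate 1, 2 or 3, without combination replicate 2 or 4, or with no filter, 6 without combination replicate 3 and 8 with the GC trend removed. Dpt and Itga2 were called in 3 of 16 leave-outs, Lair1 in 4, and the other 10 genes in 10 or 11. Skeletal muscle markers summed to at most 472 FPKM in a library, with 0 of 5 called. How far these cell types account for the collagen levels was not tested.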

How the data were processed

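Expression was measured by RNA-seq in 16 mouse tumours, 4 per group. The authors deposited FPKM values for 55146 genes in 1 table. TopHat and Cufflinks are named in the submitters' processing notes, with GRCm38.p6 and mm10 as builds. Tool versions and annotation were not given in the sources used here. Per the labels' protocols, stranded libraries were made after depletion of ribosomal RNA, while another label names polyadenylated RNA. This conflict was not resolved. All 16 columns were matched to samples by the S number in the descriptions. These numbers run through the groups in turn, so library order cannot be told apart from treatment.

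Against GENCODE release M21 (GRCm38), 53992 versioned and 54547 unversioned identifiers found a match, and so did all 44 members. The 15105 genes that reached 1 FPKM in 4 or more libraries were transformed to log2(FPKM + 1). All log2 differences are on this scale, which understates changes of low genes. Limma 3.58.1 in R 4.3.3 (trend, robust) fitted 1 mean per group over 16 libraries, two-sided, with Benjamini-Hochberg adjustment over all tested genes per comparison and a threshold of 0.05. The script was tested on simulated data. Chain ratios (7 pairs) and members under the filter were compared by exact permutation tests. Whole fragment counts could not be recovered: 24.9% to 33.2% of low values lay within 0.1 of a whole number of fragments, so no count test was run and depths and fragment numbers are rough estimates.

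Members called in any comparison or with a mean of at least 20 FPKM are given in full, other tested members by group, and list genes where called (at most 4 per list). The members and lists were chosen with earlier results of these data known. The alternatives were quantile normalization, median-of-ratios scaling, a pseudocount of 0.1, no filter, a mean of at least 1 FPKM, a replicate block, removal of the GC trend (212 tested genes without a GC value were left out) and leaving out each library. The ratios were also computed with no pseudocount.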

Additional observations from a re-analysis of the deposited data

Results flagged for a closer look

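Of 116 sets of 4 tumours (29 members in 4 groups), 9 held 1 tumour that lay far from the other 3 of its group, by Dixon's test. Chance gives about 1 in 20. No reason for any of these values was tested.

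Among the cartilage-type chains, Col11a1 was at 228 FPKM in vehicle replicate 2 (others 89.6 to 97.1), Col9a1 at 41.6 FPKM in anti-PD-L1 replicate 3 (others 67.5 to 71.1) and Col9a2 at 29.7 FPKM in anti-PD-L1 replicate 4 (others 41.9 to 44.2). Among the stromal fibrillar chains, Col1a2 was at 34.9 FPKM in vehicle replicate 4 (others 59.4 to 64.6). Col5a1 was at 7.74 FPKM in anti-PD-L1 replicate 2 (others 3.11 to 3.66), and Col5a3 at 1.35 FPKM in combination replicate 1 (others 0.754 to 0.809). Col18a1 was at 17.3 FPKM in sonidegib replicate 4 (others 5.31 to 6.47). Col8a1 was low in 2 tumours, at 3.91 FPKM in sonidegib replicate 4 (others 8.71 to 9.77) and at 3.09 FPKM in combination replicate 1 (others 7.31 to 7.85). Combination replicate 1 and sonidegib replicate 4 each held 2 of these 9 values, and the other 5 tumours concerned held 1 each.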

How the results depend on the processing

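Between combination and vehicle 4 members were called. The count was 0 with no filter, 2 with the GC trend removed, and 3 with a replicate block, which ended the call of Col25a1 (adjusted p = 0.0798 by limma). It was 6 with either scaling, 4 with a pseudocount of 0.1 and 3 where the filter asked for a mean of 1 FPKM. Leaving out 1 library gave 0 to 9 members here, 0 to 5 across the 4 groups, 0 to 1 for anti-PD-L1 against vehicle, combination against anti-PD-L1 and combination against sonidegib, and 0 for sonidegib against vehicle and for the interaction. Under the 7 other settings these 6 comparisons had 0 calls.

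The replicate block otherwise changed no call. The labels give shared numbers no meaning, and deviations of same-numbered libraries had correlations of -0.434 to 0.343 over 24 pairs, of which 4 exceeded 0.1, so the numbers were not taken as pairs.

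The difference in the ratio of Col4a1 to Col4a2 was 0.0829 and turned to -0.00033 with the GC trend removed. The other 6 ratios kept their direction, and no ratio passed the adjustment under any alternative. The cause of these shifts was not tested. Depth does not limit the members above 20 FPKM, but some members under the filter rest on few fragments. The estimates per combination library ran from 0.962 to 5.70 for Col19a1 and from 76.1 to 340 for Col17a1.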
